A study of Mus musculus with 2 samples.

Results

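The genes described here are 10 mouse genes of transforming growth factor beta (TGF-beta) signalling, taken as a fixed list by name: the ligand genes Tgfb1, Tgfb2 and Tgfb3, the latent binding protein genes Ltbp1 and Ltbp4, the receptor genes Tgfbr1, Tgfbr2 and Tgfbr3, the inhibitory SMAD gene Smad7 and the response gene Tgfbi. All 10 were on the arrays, among 16387 named genes, each with 1 probe. They were read on 2 arrays, each carrying liver RNA of mice lacking MMP-14 (labelled MMP-14 KO) in Cy3 and wild-type RNA in Cy5. The E14 Dlk+ array held RNA of cells sorted from fetal livers as positive for the hepatoblast marker Dlk and negative for CD45, CD71 and Ter119; the labels say E14 and the design text E14.5, and RNA came from 100000 cells of 3 livers per genotype. The P1 liver array held RNA of whole livers pooled from 2 animals per genotype; the labels say P1 and the design text E18.5, before birth, and this conflict was not settled, so the P1 liver named below may be fetal liver. Neither strain nor the kind of Mmp14 allele was stated in the sources used here. There was 1 array per comparison with no dye swap, so no value has a spread between animals, no test was possible, and an effect of the dye on a gene cannot be told apart from genotype.

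TGF-beta ligands are secreted bound to their own propeptide and, through it, to a latent TGF-beta binding protein that anchors the complex in the extracellular matrix. Proteases and integrins can release the active ligand, which binds a type II receptor (Tgfbr2) that recruits and phosphorylates a type I receptor (Tgfbr1), and SMAD proteins then carry the signal to the nucleus. In liver the pathway is known for restraining hepatocyte growth, for activating stellate cells to make matrix, and for its part in the bile duct fate of hepatoblasts. MMP-14 is a cell-surface protease of the matrix metalloproteinase family.

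Each ratio is given on the log2 scale, knockout over wild type, after normexp background correction with an offset of 50 and loess normalisation. A spot was called detectable when its signal exceeded the mean of the blank spots by 2 SD, which set thresholds of 44.3 (wild type) and 85.1 (knockout) for the E14 Dlk+ array and of 50.5 and 87.0 for P1 liver. The offset pulls the ratios of dim spots towards 0. Values of the authors' deposited table, which has no offset, are therefore given beside those of the detectable genes of the list and of Mmp14. Ratios of the pathway and marker genes carry the offset, so dim ones can read too close to 0, and deposited values are given for a few. As a guide to the noise of the blank spots alone, a blank range is given on the deposited scale. It is the ratio left when each channel is moved by 2 SD of the blank spots in opposite directions. Among 139 genes with several detectable probes, probes of the same gene differed with an SD of 0.12 (E14 Dlk+) and 0.22 (P1 liver). On the deposited scale these SDs were 0.29 and 0.48, a spread that the blank range does not include.

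The labels were checked first. Mmp14 had a ratio of -1.13 in the E14 cells and of -1.30 in P1 liver, where the authors' deposited table gave -2.13 and -2.83. Dlk1, the sorted marker, had signals of 4971 (wild type) and 11869 (knockout) on the E14 Dlk+ array, and the hepatocyte gene Alb had 37881 and 37592. Tfrc, which encodes the CD71 that the sort selected against, was still detectable there at 196 and 518. Knockout readings of that array were brighter in general, by a median factor of 2.55 above the blank mean, against 1.35 on the P1 liver array. The Alb signals of the E14 Dlk+ array were nonetheless near equal, and whether they had reached a signal ceiling was not tested. At 1.5-fold, 39 of 12705 genes with signal in both E14 channels were higher and 28 lower, and in P1 liver 361 of 12715 were higher and 524 lower. With median centring in place of loess, the median of all genes on the E14 Dlk+ array shifted from 0.0068 to 0.28, and the split became 3149 higher and 5 lower there, and 1295 and 320 in P1 liver.

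In whole liver labelled P1, 8 of the 9 detectable genes of the list were lower in the knockout, with Tgfbi, Tgfbr2 and Ltbp4 at least 1.5-fold lower. The wild-type channel of that array also held strong signals of lung epithelial genes, such as Sftpc at 24038 against 187 in the knockout. Whether the wild-type pool held lung tissue could not be settled from 1 array, and this limit applies to every P1 ratio below. In the sorted E14 cells none of the 9 reached 1.5-fold in either direction, and 7 were above 0. Tgfbr1 was not detectable in either channel of either array. The upstream sequences of the 3 genes that were at least 1.5-fold lower in P1 liver are shown so that the regions can be compared base by base. They are the 250 bases before the RefSeq start site (build GRCm38.p6), 5′ to 3′ on the gene's strand. Capitals mark CAGAC, a core bound by SMAD proteins, and GGGCGG, the GC box, on either strand. The windows are chr13:56609336-56609585 (plus strand) for Tgfbi, chr9:116175364-116175613 (minus strand) for Tgfbr2 and chr7:27337613-27337862 (minus strand) for Ltbp4, the most upstream of its 3 listed starts.
Tgfbi: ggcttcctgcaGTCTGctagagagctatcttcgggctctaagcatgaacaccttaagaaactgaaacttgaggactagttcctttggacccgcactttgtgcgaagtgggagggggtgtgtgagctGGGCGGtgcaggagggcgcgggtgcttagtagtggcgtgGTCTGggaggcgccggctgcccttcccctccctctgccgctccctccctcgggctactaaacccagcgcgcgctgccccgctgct
Tgfbr2: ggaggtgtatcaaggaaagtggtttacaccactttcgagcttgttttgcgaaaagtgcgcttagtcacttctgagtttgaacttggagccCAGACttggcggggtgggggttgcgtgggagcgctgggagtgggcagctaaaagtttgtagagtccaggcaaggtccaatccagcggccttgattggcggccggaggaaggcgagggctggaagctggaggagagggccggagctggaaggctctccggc
Ltbp4: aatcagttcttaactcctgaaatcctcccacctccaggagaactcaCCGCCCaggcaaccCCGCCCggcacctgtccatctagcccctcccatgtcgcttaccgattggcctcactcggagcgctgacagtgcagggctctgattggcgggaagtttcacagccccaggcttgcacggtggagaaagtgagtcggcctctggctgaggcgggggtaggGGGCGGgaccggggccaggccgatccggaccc
CAGAC occurred 2 times before Tgfbi, nearest at 81 bases from the start, and 1 time before Tgfbr2, at 156 bases, and these letters were not in the Ltbp4 window. GGGCGG occurred 3 times before Ltbp4 and 1 time before Tgfbi. Among all 32851 windows of the same length in the table, 42.2% held CAGAC and 32.7% held GGGCGG. Of the 10 genes, 7 had windows in the table. Over their first listed windows, Tgfb2 held CAGAC 2 times and Ltbp1 held it 1 time, Tgfb1 held GGGCGG 5 times and Tgfbr1 2 times, and the Tgfb2 window alone among the first windows held TATAAA, 26 bases from the start (12.4% of all windows). The letters TGANTCA were in none of the windows of the 7 genes, and in 6.75% of all windows. A match of letters is a description of the sequence and not a bound site.

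**Figure D1:**
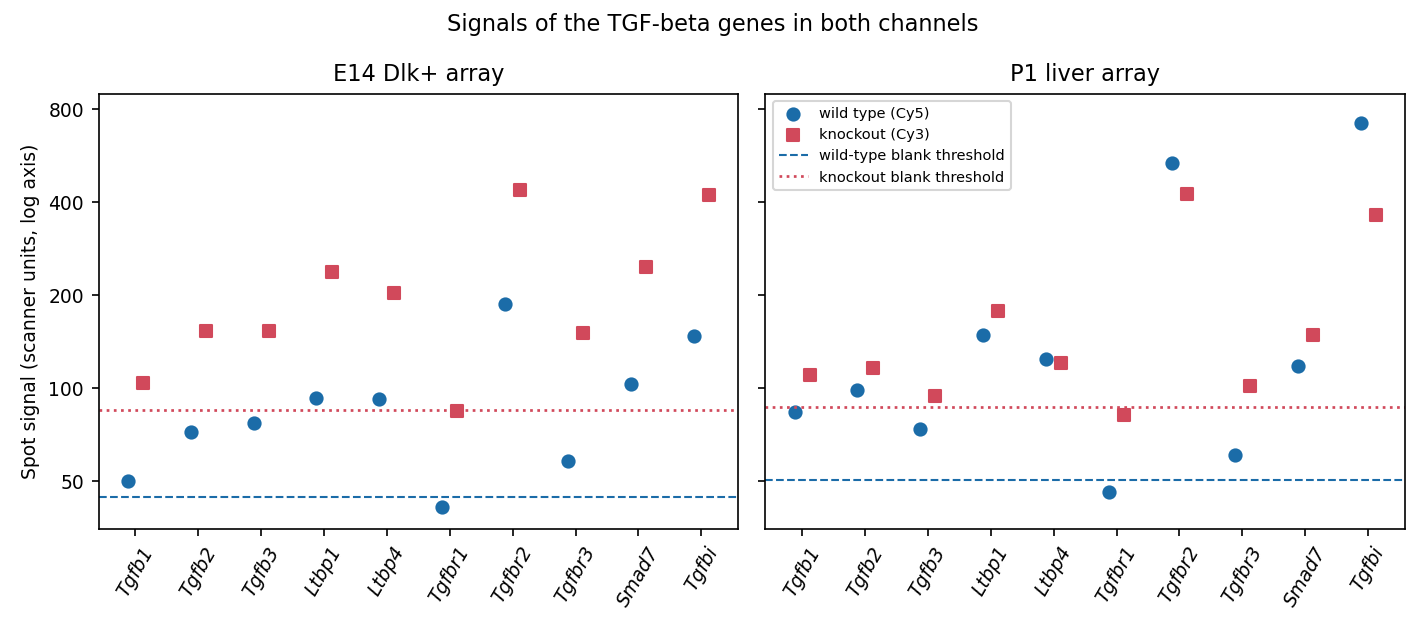
Spot signals of the 10 genes in scanner units on a log axis, with the wild-type channel as circles and the knockout channel as squares, for the E14 Dlk+ array (left) and the P1 liver array (right). Dashed and dotted lines mark the blank thresholds of the wild-type and the knockout channel. On the E14 Dlk+ array every knockout signal lies above its wild-type signal, which is the general brightness of that channel, whereas on the P1 liver array Ltbp4, Tgfbr2 and Tgfbi are brighter in the wild-type channel.

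The ligand genes were dim on both arrays and none was 1.5-fold changed. Tgfb1, the ligand made by platelets, macrophages and many other cells, had E14 signals of 49.9 (wild type) and 104 (knockout) and P1 signals of 83.5 and 111. Its ratio was 0.02 in the E14 cells, and 0.24 in the authors' deposited table with a blank range from -0.41 to 0.93. In P1 liver the ratio was -0.23, and -0.77 in the authors' deposited table, with a blank range from -1.11 to -0.45 that lay below 0.

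Tgfb2, a ligand with a large part in organ development, had E14 signals of 72.2 and 153 and P1 signals of 99.0 and 117. The ratio was -0.01 in the E14 cells and -0.38 in P1 liver, and the authors' deposited table gave -0.08 and -1.02. Its blank range included 0 in the E14 cells (-0.26 to 0.11) and did not in P1 liver (-1.29 to -0.77). Tgfb3, the third isoform, had E14 signals of 77.3 and 154 and P1 signals of 73.8 and 94.4, so its knockout reading in P1 liver stood just 5.31 blank SDs above the blank mean. Its ratio was -0.11 in the E14 cells, the lowest of the 9 genes there, and -0.36 in P1 liver. The authors' deposited table gave -0.29 and -1.55, with a wide blank range of -2.37 to -0.95 in P1 liver. All 3 ligand genes were thus lower in the P1 knockout by more than the blank noise, which leaves out the spread between probes. The size of these ratios depended on how the background was treated. That of Tgfb1 (-0.23) was about as large as the SD between probes of a gene there (0.22).

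Of the latent binding protein genes, Ltbp1 was slightly higher and Ltbp4 near 0 in the E14 cells, and both were lower in P1 liver. Ltbp1, which tethers latent TGF-beta to the matrix, had E14 signals of 93.0 and 238 and P1 signals of 149 and 178. Its ratio was 0.21 in the E14 cells, at the 93.1st percentile of all detectable genes, and -0.27 in P1 liver. The authors' deposited table gave 0.28 and -0.51. With the local background of each spot used in normexp the P1 ratio was 0.42, and with it subtracted 1.93, so its direction in P1 liver depends on that choice.

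Ltbp4, a binding protein that also takes part in elastic fibre assembly, had E14 signals of 92.3 and 203 and P1 signals of 124 and 120. The wild-type reading was the higher of the 2 in P1 liver although the knockout channel was brighter in general. Its ratio was 0.0025 in the E14 cells and -0.66 in P1 liver, a 1.58-fold difference that lay at the 3.30th percentile of all detectable genes. The authors' deposited table gave -0.06 and -1.45, and the P1 blank range ran from -1.68 to -1.24. With normexp on the local background the P1 ratio was -0.51, and with an offset of 100 it was -0.45, both short of 1.5-fold (0.58 on the log2 scale).

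Of the receptor genes, Tgfbr1 gave no usable ratio. Its E14 signals were 41.3 and 84.6 and its P1 signals 46.1 and 81.7, all under the thresholds. This limits what this probe could detect and does not show that the type I receptor was absent.

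Tgfbr2, the ligand-binding type II receptor gene, had E14 signals of 188 and 439 and P1 signals of 535 and 426. Its E14 ratio was 0.0033, and -0.05 in the authors' deposited table. In P1 liver the ratio was -0.90, a 1.87-fold difference at the 1.81st percentile, and the authors' deposited table gave -0.94 with a narrow blank range from -0.97 to -0.92. The P1 ratio of Tgfbr2 passed 1.5-fold in all 7 alternative treatments, from -1.25 to -0.59. Its 2 signals on that array stood 399 and 153 blank SDs above the blank mean, far more than those of the ligand genes.

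Tgfbr3, the co-receptor betaglycan that presents ligand to Tgfbr2, was the exception among the 9. Its E14 signals were 58.1 and 151 and its P1 signals 60.5 and 102. The E14 ratio was 0.30, at the 97.3rd percentile, and 0.81 in the authors' deposited table with a blank range from 0.54 to 1.09, which made it the single gene of the list past 1.5-fold on that scale. In P1 liver the ratio was 0.06, the only one above 0. The authors' deposited table gave 0.20 there, with a blank range of -0.44 to 0.81 that included 0.

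Smad7, an inhibitory SMAD that the pathway itself induces, had E14 signals of 103 and 247 and P1 signals of 118 and 149. Its ratio was 0.11 in the E14 cells and -0.22 in P1 liver, and the authors' deposited table gave 0.11 and -0.51. The P1 value was about as large as the SD between probes of a gene there (0.22), and the blank range on the deposited scale ran from -0.66 to -0.37.

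Tgfbi, a secreted matrix protein gene named for its induction by TGF-beta, differed most. Its E14 signals were 147 (wild type) and 422 (knockout) and its P1 signals 720 and 363. The knockout was higher in the E14 cells, with a ratio of 0.31 at the 97.5th percentile, and lower in P1 liver, with a ratio of -1.59, a 3.0-fold difference at the 0.425th percentile. The authors' deposited table gave 0.35 and -1.70, with blank ranges of 0.31 to 0.40 and of -1.73 to -1.67. Over the 7 alternative treatments the P1 ratio ranged from -1.88 to -1.26 and the E14 ratio from 0.26 to 0.81, so the sign on each array held in all of them.

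**Figure D2:**
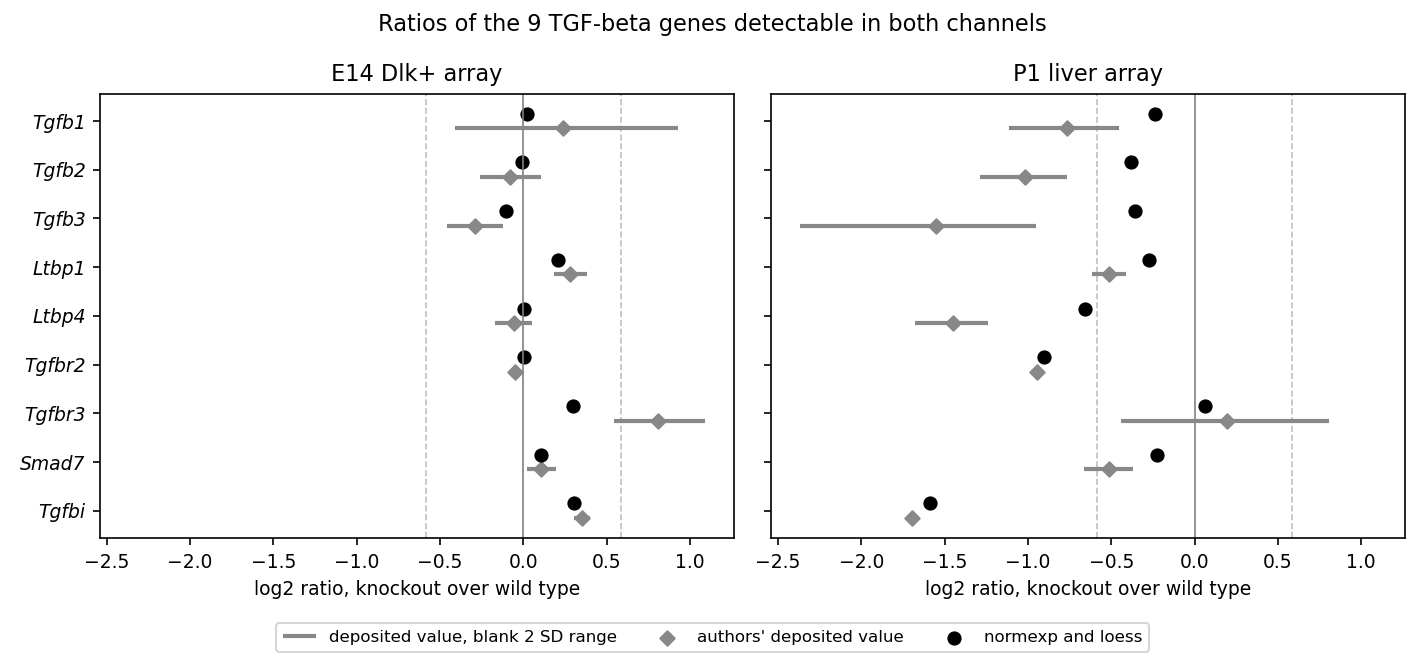
Log2 ratios of knockout over wild type for the 9 detectable genes on each array. Black circles are values after normexp and loess, grey diamonds the authors' deposited values, grey bars the blank range around them, and dashed lines 1.5-fold. In P1 liver Tgfbi (-1.59), Tgfbr2 (-0.90) and Ltbp4 (-0.66) lie beyond the left dashed line and Tgfbr3 (0.06) alone lies right of 0, and in the E14 cells no black circle reaches a dashed line.

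As a list, 0 of 9 genes were at least 1.5-fold higher in the E14 cells, where 0.307% of all detectable genes were, and 0 of 9 were lower by that size, where 0.22% were. At 2-fold 0 of 9 were lower, against 0.0945%. The 2 genes below 0, Tgfb2 and Tgfb3, compare with 46.9% of all genes. Of the small E14 ratios, those of Tgfb1, Tgfb2, Tgfb3, Tgfbr2, Ltbp4 and Smad7 changed sign under at least 1 alternative treatment, and those of Ltbp1 and Tgfbi in none of 7. That of Tgfbr3 kept its sign in the 6 that gave a value, since its wild-type spot lay below its local background. The median of the 9 was 0.02, against 0.0068 for all genes, and it was 0.38 under median centring, where the median of all genes was 0.28. In P1 liver 3 of 9 were at least 1.5-fold lower (background 4.12%) and 0 of 9 higher (background 2.84%). At 2-fold the lower count was 1, Tgfbi, against a background of 1.45%. The median of the 9 was -0.36, against -0.0017 for all genes, and 8 of 9 lay below 0, as did 50.4% of all genes. Of the 9, 6 were at least 1.5-fold lower in P1 liver in the authors' deposited table (background 12.2%) and 0 higher (11.9%), with a median of -0.94, the additional ones being Tgfb1, Tgfb2 and Tgfb3. Its E14 values held 1 gene at least 1.5-fold higher (background 5.38%) and 0 lower (1.22%).

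The same counts were made under 4 other treatments of the background and scaling, with the share of all genes past 1.5-fold in brackets. Median centring gave 1 higher (24.8%) and 0 lower (0.0394%) in the E14 cells, and 0 higher (10.2%) and 3 lower (2.52%) in P1 liver. Subtraction of the blank mean gave 1 higher (2.9%) and 0 lower (3.38%), and 0 higher (9.95%) and 6 lower (12.3%). Subtraction of the local background gave 1 higher (14.2%) and 0 lower (7.74%), and 2 higher (18.4%) and 7 lower (14.8%). An offset of 16 gave 0 higher (0.645%) and 0 lower (0.22%), and 0 higher (4.22%) and 5 lower (6.37%). In each of these treatments the P1 share of the 9 genes that were lower exceeded the share of all genes, while the single E14 gene past 1.5-fold was not the same one in each: Tgfbi under median centring, Tgfbr3 after subtraction of the blank mean and Ltbp1 after subtraction of the local background. Since the genes were chosen with results of these arrays known, these counts describe the list and are not independent evidence.

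The rank of each gene within its channel was set beside its rank on the other array. Tgfbi stood at the 75.7th percentile of gene probes in the wild-type E14 channel and at the 92.7th in the wild-type P1 channel, while its knockout ranks were 79.0 and 80.9. Tgfbr2 had wild-type ranks of 80.0 and 90.3 and knockout ranks of 79.6 and 83.4. For these 2 genes the wild-type rank thus differed between the arrays by more than the knockout rank. Ltbp4 kept its wild-type rank (65.6 and 66.4) and had a lower knockout rank in P1 liver (65.3 and 53.4), and Tgfb3 was lower in both genotypes (60.9 to 50.2 in wild type and 58.1 to 36.3 in the knockout). The arrays differ in stage, in sorting and in pooling, so these ranks are set side by side without a test.

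**Figure D3:**
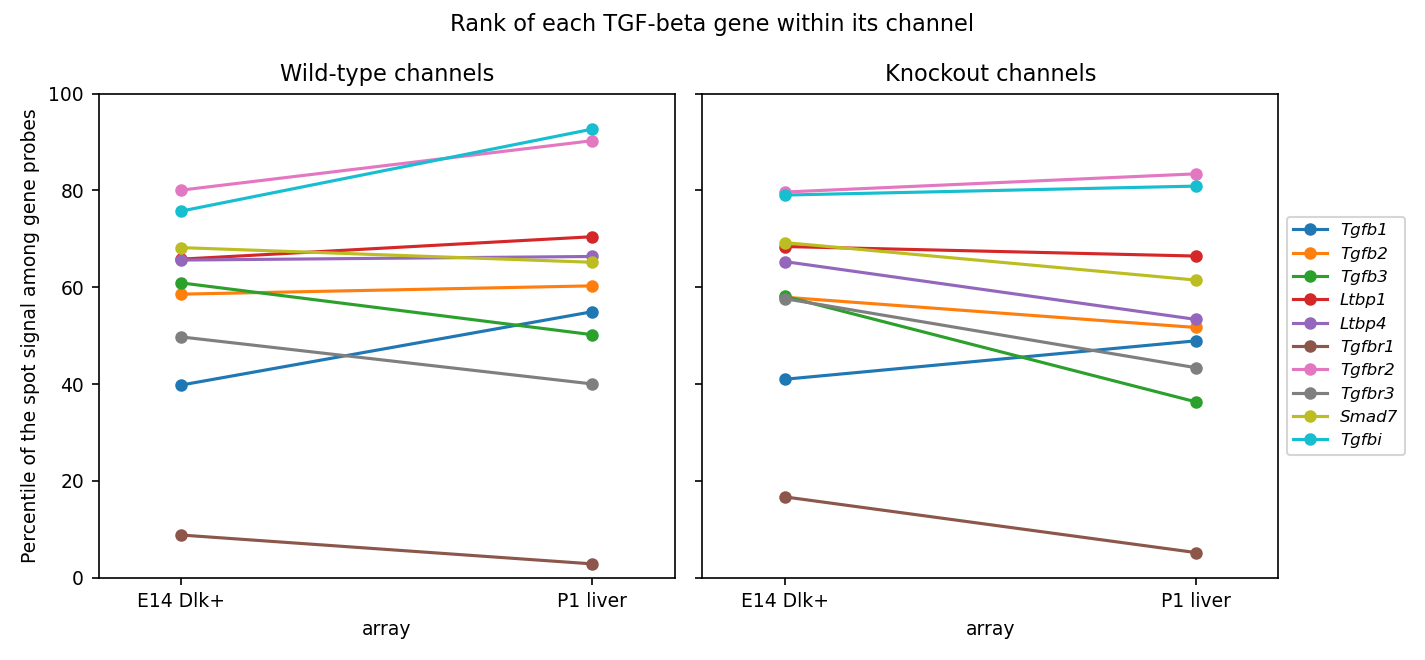
Percentile of the spot signal of each of the 10 genes among all gene probes, in the wild-type channels (left) and the knockout channels (right), with lines joining the E14 Dlk+ and the P1 liver array. Tgfbi and Tgfbr2 climb to 92.7 and 90.3 in the wild-type P1 channel and stay at 80.9 and 83.4 in the knockout P1 channel.

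Other genes of the pathway were followed in 5 lists with 74 genes on the arrays. Of the 70 detectable in both channels of the E14 Dlk+ array, 2 were at least 1.5-fold higher and 0 lower, against 0.307% and 0.22% of all detectable genes. Of the 68 on the P1 liver array, 1 was higher and 22 were lower, against 2.84% and 4.12% of all genes, and 10 were lower by at least 2-fold, against 1.45%. Most of that P1 difference lay in the response genes. Of 22 genes known to respond to TGF-beta, 14 were at least 1.5-fold lower in P1 liver (4.12% of all genes) and 0 higher (2.84%), and their median was -0.70. Under median centring 7 were lower (2.52% of all genes), and the median was -0.54. Acta2, the smooth muscle actin of activated stellate cells, had P1 signals of 366 and 132 and a ratio of -2.11. The collagen gene Col1a2 (762 and 327) stood at -1.82, the contractile gene Tagln (196 and 107) at -1.54, and Ccn1 (227 and 139), a matricellular gene that is also a YAP target, at -1.30. In the E14 cells the same list had a median of 0.17, with 2 of 22 genes at least 1.5-fold higher (0.307% of all genes), Tagln (0.68) and Postn (0.62), followed by Ccn1 (0.57) and Tgfb1i1 (0.55). Over all 5 lists, the authors' deposited table held 8 of 70 genes at least 1.5-fold higher in the E14 cells (5.38% of all genes) and 0 lower (1.22%). In P1 liver it held 4 of 68 higher (11.9%) and 29 lower (12.2%).

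Genes of latency and activation were less shifted than the response genes in median. Fbn1, which encodes the fibrillin to which latent complexes attach, had E14 signals of 169 and 479 with a ratio of 0.28, and P1 signals of 395 and 183 with a ratio of -1.70. It was the only 1 of 8 detectable genes of this list at least 1.5-fold lower in P1 liver (4.12% of all genes), and the list median was -0.07. Nrros, a protein that holds latent TGF-beta on macrophage-like cells, followed at -0.58, the plasminogen activator gene Plat at -0.23 and the fibrillin gene Fbn2 at -0.07. The authors' deposited table gave -1.23 for Plat in P1 liver. There 2 of 8 genes of the list were at least 1.5-fold lower (12.2% of all genes) and 0 higher (11.9%). Among the E14 values none of the 7 detectable genes reached 1.5-fold, and Fbn2 (0.06), Ltbp3 (-0.06) and Itgav (-0.04) stood near 0.

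At the receptor level, 3 of 9 genes were at least 1.5-fold lower in P1 liver (4.12% of all genes) and 1 was higher (2.84%). The lower ones were Acvrl1 (-0.97) and Eng (-0.67), a receptor and a co-receptor of endothelial cells, and Pmepa1 (-0.70), a membrane protein that restrains SMAD activation. Pmepa1 was dim in the P1 knockout, at 89.4 against a threshold of 87.0, and its deposited P1 value was -2.95. The higher one was Strap (0.60), which encodes a receptor-binding protein that also acts in RNA splicing and assembly of ribonucleoproteins. The median was -0.12. The largest E14 ratios were those of Eng (0.29), Pmepa1 (0.20), Strap (0.15) and Bambi (0.12), a decoy receptor gene, and none reached 1.5-fold.

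The SMAD genes and their nuclear partners had a P1 median close to that of all genes. Of 13 detectable in P1 liver, 1 was at least 1.5-fold lower (4.12% of all genes), the repressor gene Ski (-0.62), and the median was 0.0039. Smad6 (-0.27), an inhibitory SMAD of the BMP branch, Smad5 (-0.26) and the repressor gene Tgif1 (0.26) followed. The largest E14 ratios here were Foxh1 (-0.15), Ep300 (0.15), Ski (0.13) and Smad6 (-0.10) among 14.

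On the activin and BMP side, 3 of 16 genes were at least 1.5-fold lower in P1 liver (4.12% of all genes), and the median was -0.06. They were Fstl1 (-1.89), a secreted follistatin-like glycoprotein, Inhbe (-1.49), a liver activin subunit, and the ligand gene Bmp4 (-0.85), with the activin subunit gene Inhba at -0.53. Fstl1 was at 0.56 in the E14 cells, Inhbe at -0.27, Bmp5 at 0.26 and Bmp4 at 0.24, and 0 of 18 reached 1.5-fold.

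**Figure D4:**
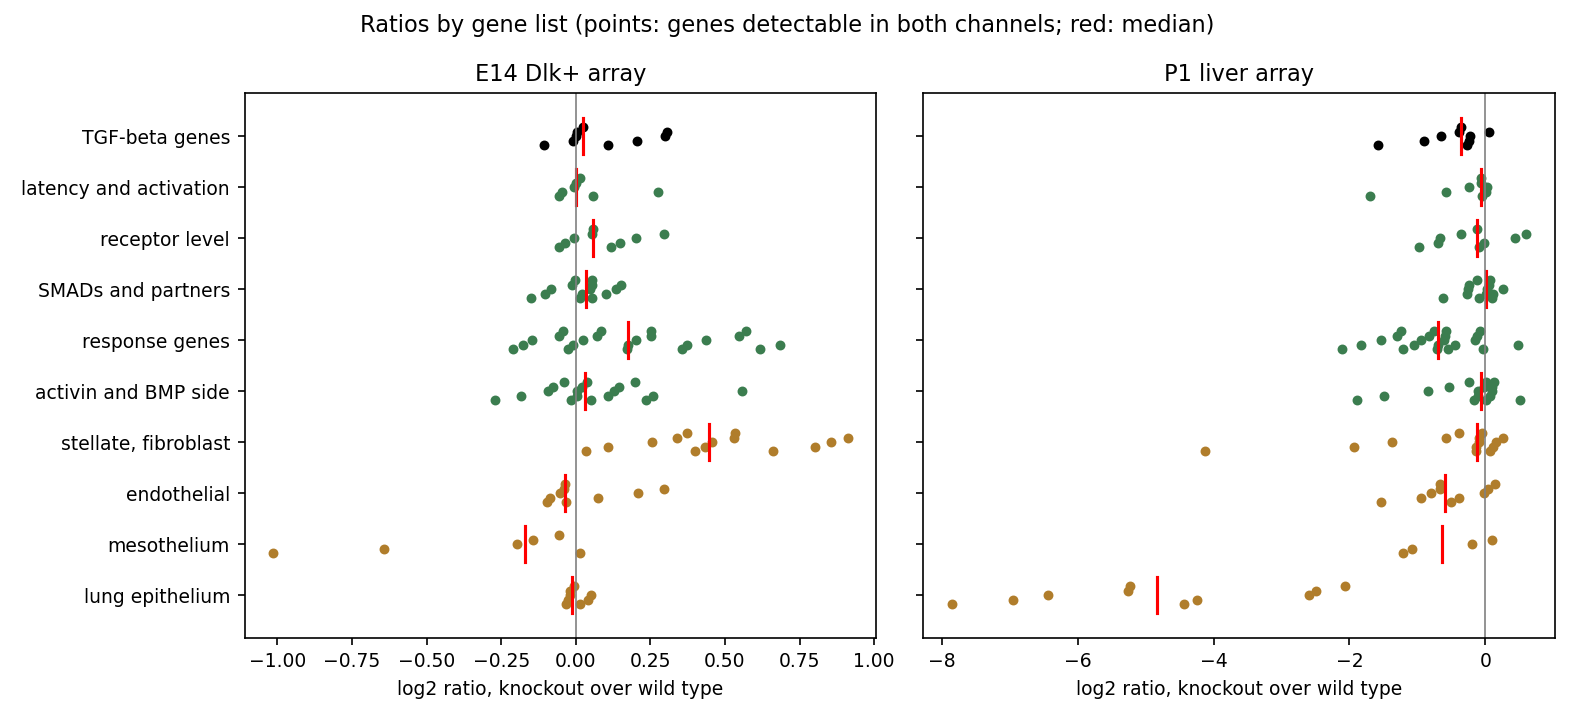
Log2 ratios of the genes detectable in both channels, by list, on the E14 Dlk+ array (left) and the P1 liver array (right), whose horizontal axes differ. Points are genes, in black for the 10-gene list, green for other pathway lists and brown for cell type markers, and red bars are medians. In P1 liver the response genes (median -0.70) lie left of the SMAD genes (0.0039), and the lung epithelial markers (-4.83) lie far left of every other list shown.

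Markers of other cell types were read on both arrays beside these values. In bulk RNA, fewer cells of a type and less RNA per cell cannot be told apart. In P1 liver, lung epithelial markers were present in the wild-type channel: 16 of 16 were detectable there against 10 of 16 in the knockout channel, and their summed signal above the blank mean was 45465 in wild type and 538 in the knockout, scaled by the array's median ratio. Sftpc (-7.85) and Scgb1a1 (-6.95) were lowest. Sums on the E14 array were 130 and 133, 9 of 16 were detectable in each channel, and Sftpc and Scgb1a1 were under the wild-type threshold. Their part in the lower P1 ratios of Tgfbi, Tgfbr2, Ltbp4 and the response genes was not tested.

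Stromal markers were read in the same way. Of 14 stellate and fibroblast markers, 14 were above 0 in the E14 knockout, where 46.9% of all genes were below 0. Their median was 0.45, with summed signals of 6810 in wild type and 9609 in the knockout, and Colec11 (0.91) and Dcn (0.86) were highest. In P1 liver 10 of the 14 were below 0 (50.4% of all genes), with a median of -0.12, and 3 were at least 1.5-fold lower (4.12% of all genes). These were Mfap4 (-4.12), Col3a1 (-1.93) and Vim (-1.38), the last named after its value was seen. The P1 sums were 6342 and 3194 over all 14, and 2017 and 1932 over the 11 without those 3. Since the 3 were left out for being lower, the second pair of sums is closer by selection and is description only. Of 12 endothelial markers, 10 were detectable in both P1 channels, with a median of -0.59, and the sums over all 12 were 4536 and 2913. Of the 10, 5 were at least 1.5-fold lower (4.12% of all genes), among them Egfl7 (-1.54) and Pecam1 (-0.95). Below 0 were 8 of the 10 (50.4% of all genes), and 2 were above 0, among them Stab1 (0.14). Under median centring 3 were lower (2.52% of all genes) and the median was -0.30. In the E14 cells the endothelial median was -0.03 over 9. Mesothelial markers had a median of -0.17 over 6 in the E14 cells, with Upk3b at -1.01 and Podxl at -0.64. These 2 were at least 1.5-fold lower (0.22% of all genes), and under median centring 0 were (0.0394%). In P1 liver the mesothelial median was -0.64 over 4. Podxl at -1.22 and Msln at -1.08 were at least 1.5-fold lower (4.12% of all genes), and Upk3b stood at -0.20. Wt1, at 0.015 in the E14 cells and 0.10 in P1 liver, was the 1 detectable mesothelial marker above 0 on each array. The part of these cells in the ratios of the TGF-beta genes was not tested.

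Blood and liver cell lists were read in the same way, and the P1 macrophage median (0.21) and the E14 erythroid median (0.06) changed sign under median centring. Platelet and megakaryocyte markers, of cells rich in Tgfb1, had a P1 median of 0.03 over 8, with Itgb3 at 0.29, Gp1bb at -0.23 and sums of 3726 and 4027, and an E14 median of 0.05, with Pf4 at 0.41 and Gp9 at 0.20. In the authors' deposited table these E14 values were 1.04 for Pf4 and 1.84 for Gp9. There 4 of 8 markers were at least 1.5-fold higher (5.38% of all genes) and 0 lower (1.22%). Macrophage markers had a P1 median of -0.16 over 9, with Cd5l at -0.62, Cd68 at -0.48 and sums of 7313 and 7609. Of the 9, 1 was at least 1.5-fold lower (4.12% of all genes) and 7 were below 0 (50.4%). The 2 above 0 were Marco (0.16) and Timd4 (0.16). The E14 median of the macrophage markers was -0.0022 over 5, with Csf1r at -0.14 and Marco at -0.07. Erythroid markers had a P1 median of -0.59 over 7, with 4 at least 1.5-fold lower (4.12% of all genes), Rhd at -1.15, Klf1 at -1.10 and sums of 4604 and 3900. Tfrc (0.36) was the 1 of the 7 above 0. Under median centring 2 were lower (2.52% of all genes) and 1 higher (10.2%), and the median was -0.34. The E14 median of the erythroid markers was -0.0019, with Epor at 0.29 and Tfrc at 0.17. Hepatoblast and hepatocyte markers had an E14 median of -0.76 over 11, and of -0.0033 under median centring. Of the 11, 6 were at least 1.5-fold lower (0.22% of all genes). Foxa3 (0.11) alone was above 0, and Dlk1 (-0.03) and Hnf4a (-0.12) were short of that size. Trf stood at -1.39 (39329 in wild type and 36806 in the knockout) and Ttr at -1.36 (35758 and 34246). Their spots were among the brightest and near equal in both channels, although the knockout channel was brighter by a median factor of 2.55. Whether such spots had reached a signal ceiling was not tested. The P1 median of the hepatoblast and hepatocyte markers was -0.35, and -0.13 under median centring. In P1 liver 5 of 11 were at least 1.5-fold lower (4.12% of all genes), and 8 were below 0 (50.4%). The 3 above 0 were Hnf4a (0.31), Afp (0.14) and Dlk1 (0.11). Ttr stood at -1.65 there (40937 and 22831) and Alb at -1.12 (54365 and 44636), and a ceiling was not tested here either. Bile duct markers had medians of -0.04 over 5 and -0.26 over 4, with Cldn4 (-0.45) and Epcam (-0.12) in the E14 cells and Epcam (-1.23) and Cldn4 (-0.39) in P1 liver. Sox9, at 0.08 and 0.17, was the 1 detectable bile duct marker above 0 on each array. At least 1.5-fold lower were 0 of 5 in the E14 cells (0.22% of all genes) and 1 of 4 in P1 liver (4.12%). Under median centring the P1 median was -0.03.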

How the data were processed

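Each array was read in 2 colours, with wild type at 635 nm and knockout at 532 nm. The deposited scanner files hold the median spot intensity and the median local background intensity of each channel, not normalised, per the file headers. Per the labels' protocols, RNA was amplified with an amino allyl kit before dye coupling. The series table holds log2 ratios made by the authors. Recomputing them as knockout over wild type, each less its trimmed mean of blank spots, with the median set to 0, gave a Pearson correlation of 1.00 over probes for either array, so scale, centring and direction are known. The column medians were 7.21e-07 and -2.74e-05. No depth applies to arrays, and their number limits the precision.

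Blank spots (2736 per array) gave the thresholds after 5 percent was removed at each end. With limma 3.58.1 (R 4.3.3), ratios came from normexp on the spot signal with an offset of 50, loess with control spots at weight 0, then means over spots and probes. The local background was left out because it followed the spot (Spearman correlation from 0.895 to 0.951 over the 4 channels). Of 23473 probes, 16631 had 1 symbol, 0 had several, and 6842 have no name here. A RefSeq table of GRCm38.p6 held 12622 of these symbols as current and renewed 3947, and 62 were kept. Of the E14 Dlk+ array, 4 flagged spots were left out.

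The 10 genes and all lists were chosen with earlier results of these data known. Named genes were all 10 members, the 4 largest absolute ratios of each pathway list and the 2 largest of each cell type list on each array, and Mmp14. Dlk1, Alb and Tfrc were named as checks of the label, outside this rule. Vim, Hnf4a, Foxa3, Afp, Sox9, Wt1 and Timd4 were named after their values were seen, all but Vim to show markers above 0. Alternatives were median centring, the authors' log2 values, other backgrounds and offsets, other detection filters, 2-fold in place of 1.5-fold and the brightest probe. Whether values differ between animals was not testable with 1 array per comparison.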

Additional observations from a re-analysis of the deposited data

Results flagged for a closer look

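Tgfbi and Ltbp1 lay on opposite sides of 0 on the 2 arrays, each by more than the SD between probes of a gene on that array. The P1 ratio minus the E14 ratio was -1.89 for Tgfbi (0.31 in the E14 cells and -1.59 in P1 liver) and -0.48 for Ltbp1 (0.21 and -0.27). These differences between the arrays were not tested, since each rests on 1 array. The sign of the P1 ratio of Ltbp1 turned with the local background, at 0.42 in normexp and 1.93 after subtraction, so its opposite directions rest on the treatment of the background.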

How the results depend on the processing

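No paired analysis was possible because each comparison had 1 array. Of the 3 genes at least 1.5-fold lower in P1 liver, Tgfbi and Tgfbr2 passed that size in all 7 alternatives and Ltbp4 in 5 of 7. The brightest probe gave the same values, since each of the 10 genes had 1 probe. In the E14 cells the count of the 10 genes at least 1.5-fold higher went from 0 to 1 under median centring (Tgfbi), in the authors' values and with the blank mean subtracted (Tgfbr3), and with the local background subtracted (Ltbp1), and their median from 0.02 to 0.38 (median centring) and -0.10 (local background subtracted). The count at least 1.5-fold lower in P1 liver went from 3 to 6 in the authors' values and with the blank mean subtracted, 7 with the local background subtracted, 5 with an offset of 16, 2 with an offset of 100 or the local background in normexp, and 1 at 2-fold, and the higher count from 0 to 2 with the local background subtracted. The P1 median went from -0.36 to -0.94 (authors' values), -1.12 (local background subtracted), -0.90 (blank mean subtracted) and -0.59 (offset of 16), and towards 0, to -0.21, with an offset of 100.

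Counts of the other pathway genes are given with the share or count of all genes past the same size in brackets. The E14 count at least 1.5-fold higher was 2 of 70 (0.307%), and 23 under median centring (24.8%). It was 8 in the authors' values (5.38%) and with the blank mean subtracted (2.9%). It was 9 with the local background subtracted (14.2%) and 4 with an offset of 16 (0.645%). With an offset of 100 (19 of 12705 genes) or the local background in normexp (486 of 12705) it was 1, and at 2-fold 0. The lower count was 0 (0.22%), and 3 with the local background subtracted (7.74%) and 1 with the blank mean subtracted (3.38%). Their E14 median went from 0.05 to 0.38 under median centring. In P1 liver the higher count was 1 of 68 (2.84%). It was 2 with the local background in normexp (880 of 12715 genes) or subtracted (18.4%) and under median centring (10.2%). It was 4 in the authors' values (11.9%) and with the blank mean subtracted (9.95%), and 3 with an offset of 16 (4.22%). With an offset of 100 (265 of 12715 genes) and at 2-fold it was 0. The lower count was 22 (4.12%), and 13 under median centring (2.52%) and 10 at 2-fold (1.45%). The P1 median went from -0.16 to -0.48 (authors' values), -0.49 (local background subtracted) and -0.41 (blank mean subtracted). Counts of detectable genes of the list stayed at 9 in each channel with a threshold of 3 SD. Signal over background limits Tgfb1, Tgfb3 and Tgfbr3 most, and Tgfbr1 altogether.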
